A study of Mus musculus with 18 samples.

Results

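The clustered protocadherins are a family of cell-surface adhesion proteins encoded side by side in 3 gene clusters, alpha, beta and gamma, on mouse chromosome 18. They were followed here across the developing cerebral cortex. The 55 members were the genes of the deposited table whose symbol is that of an alpha, beta or gamma cluster protocadherin, out of 28852 genes in all. They comprise 10 alpha, 22 beta, 12 gamma A and 6 gamma B members and 5 C-type members, namely Pcdhac1 and Pcdhac2 at the end of the alpha cluster and Pcdhgc3, Pcdhgc4 and Pcdhgc5 at the end of the gamma cluster. Pcdha4, Pcdha7 and Pcdhgb8 were not analysed here. The study sequenced RNA from whole cortex of mice labelled Alg13 knockout (KO) and of mice labelled wild type (WT) at 1, 7 and 30 days of age, with 3 libraries in each of the 6 groups, and its stated subject is the placement of cortical interneurons. Alg13 encodes a subunit of the enzyme that, with Alg14, makes an early addition to the lipid-linked precursor of N-linked sugar chains. No label used here gives the strain, the sex or the knockout allele, or says that the 3 libraries of a group came from separate animals. A p-value therefore reflects only how these libraries vary, which may be technical.

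Each neuron displays a small set of protocadherins chosen from the clusters. The variable exon of each alpha, beta and gamma A or B member has its own promoter, and promoter choice is largely random from cell to cell. It depends on DNA methylation, on the insulator protein CTCF and on the cohesin complex, which loops a chosen promoter to a distant enhancer. The C-type promoters are instead switched on more uniformly in particular cell types. On the surface the proteins assemble in mixed sets that bind only an identical set, so that a neuron can tell its own branches from those of other neurons. Loss of the gamma cluster in mice kills many interneurons, and Pcdhgc4 is the member that keeps them alive. In serotonergic neurons Pcdhac2 spaces out the axons, and Pcdhgc3 binds the Wnt pathway scaffold Axin1. The data are from bulk tissue, in which a member used by fewer cells and a member with less RNA in each cell cannot be told apart.

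Alg13 itself did not separate the genotypes. It had 2.5, 2.57 and 1.04 FPKM (fragments of a transcript corrected for its length and for the size of the library) in KO-labelled libraries on day 1, against 3.27, 1.93 and 2.79 in WT-labelled libraries. On day 7 it had 1.93, 2.34 and 2.78 FPKM in KO-labelled libraries, against 1.92, 1.94 and 1.53 in WT-labelled libraries. On day 30 it had 1.32, 1.19 and 1.82 FPKM in KO-labelled libraries, against 0.968, 0.833 and 1.21 in WT-labelled libraries. The mean difference over the 3 days was 0.08 ± 0.114 on the log2(FPKM + 1) scale (SE, limma adjusted p = 0.834). Because the position of the deleted part is unknown here, such reads may lie outside it, and the genotypes are called by their labels throughout. Every neuron marker was detected in every group. A length index, the level of genes with transcripts over 6000 bases relative to genes under 2000 bases within a group (log2), was lowest in KO-labelled day 1 replicate 3 at -0.41, KO-labelled day 30 replicate 1 at -0.36 and WT-labelled day 1 replicate 3 at -0.32. The other 15 libraries lay between -0.11 and 0.33. Of the 46 members tested, 43, 35 and 44 had their lowest value of the group in these 3 libraries, in that order, against 39.5%, 35.7% and 45.1% of the other genes. WT-labelled day 1 replicate 3 also held salivary gland markers at a summed 32782 FPKM, against at most 13.5 in any other library, and brown fat markers at 1897 FPKM. Xist, which coats the silenced X, was at 157 FPKM in WT-labelled day 1 replicate 2, where the 4 Y-linked markers were at or near 0. Xist was at 23.8, 39.4 and 31.5 FPKM together with Y-linked markers in KO-labelled day 1 replicate 3, WT-labelled day 1 replicate 3 and WT-labelled day 30 replicate 2, and at most 0.0650 in the other 14. The part of these features in the results below was not tested, except by the values given without the libraries and by a fit with the length index as a covariate, given at the end.

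The clusters differ in how well their members can be told apart by short reads. In the GENCODE M21 transcript models, which belong to the older mouse build GRCm38 and were used only for structure, each beta member is 1 exon. Each matched alpha, gamma and C-type member has 4 exons, and all but the first are known to be common to a cluster. Exons with the same ends in at least 4 other members covered 2860 bases of each alpha cluster transcript and 2119 bases of most gamma cluster transcripts, but only 148 bases of the models for Pcdhga2, Pcdhga9, Pcdhgb1 and Pcdhgb4. Between 55.7% and 60.8% of the 50-base words of an alpha transcript also occurred in another member, against 41.2% to 46.6% for gamma A, 45.9% to 54.2% for gamma B, 41.6% to 52.4% for C-type and 0% to 12% for beta members. The FPKM of alpha, gamma and C-type members therefore rests in part on how the authors' quantifier divided shared fragments, and single members of these groups are uncertain to that extent. One alpha member, Pcdha10, had no transcript in these models.

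Levels differed widely within every group. Pcdhgc3 was the most abundant member in every library of days 1 and 7, with a mean of 19.5 FPKM over the 18 libraries. The next highest means were those of Pcdhgc5 at 7.75, Pcdhac2 at 6.94, Pcdhga11 at 5.59 and Pcdhgc4 at 5.33 FPKM. At the other end Pcdha6 was listed at 0 in 15 libraries and never passed 0.00514 FPKM, and Pcdhb1, listed at 0 in 9, never passed 0.0510. A level of at least 1 FPKM in at least 3 libraries, the requirement for testing, was met by 46 of the 55 members. The 9 members left out were Pcdha1, Pcdha6, Pcdha8, Pcdha10, Pcdhac1, Pcdhb1, Pcdhb4, Pcdhb6 and Pcdhgb5. Their highest values over all libraries were 0.739 FPKM for Pcdha1, 0.165 for Pcdha8, 1.00 for Pcdha10, 1.28 for Pcdhac1, 1.07 for Pcdhb4, 1.03 for Pcdhb6 and 1.29 for Pcdhgb5. Among the 46 tested, 28 reached 1 FPKM in at least 3 libraries on each of the 3 days, 15 on 2 days, and Pcdhb2, Pcdhb10 and Pcdhgb4 on 1 day only. A member tested through 1 or 2 days was more likely to show a change with age, so the counts below describe the members tested and not the family.

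**Figure D1:**
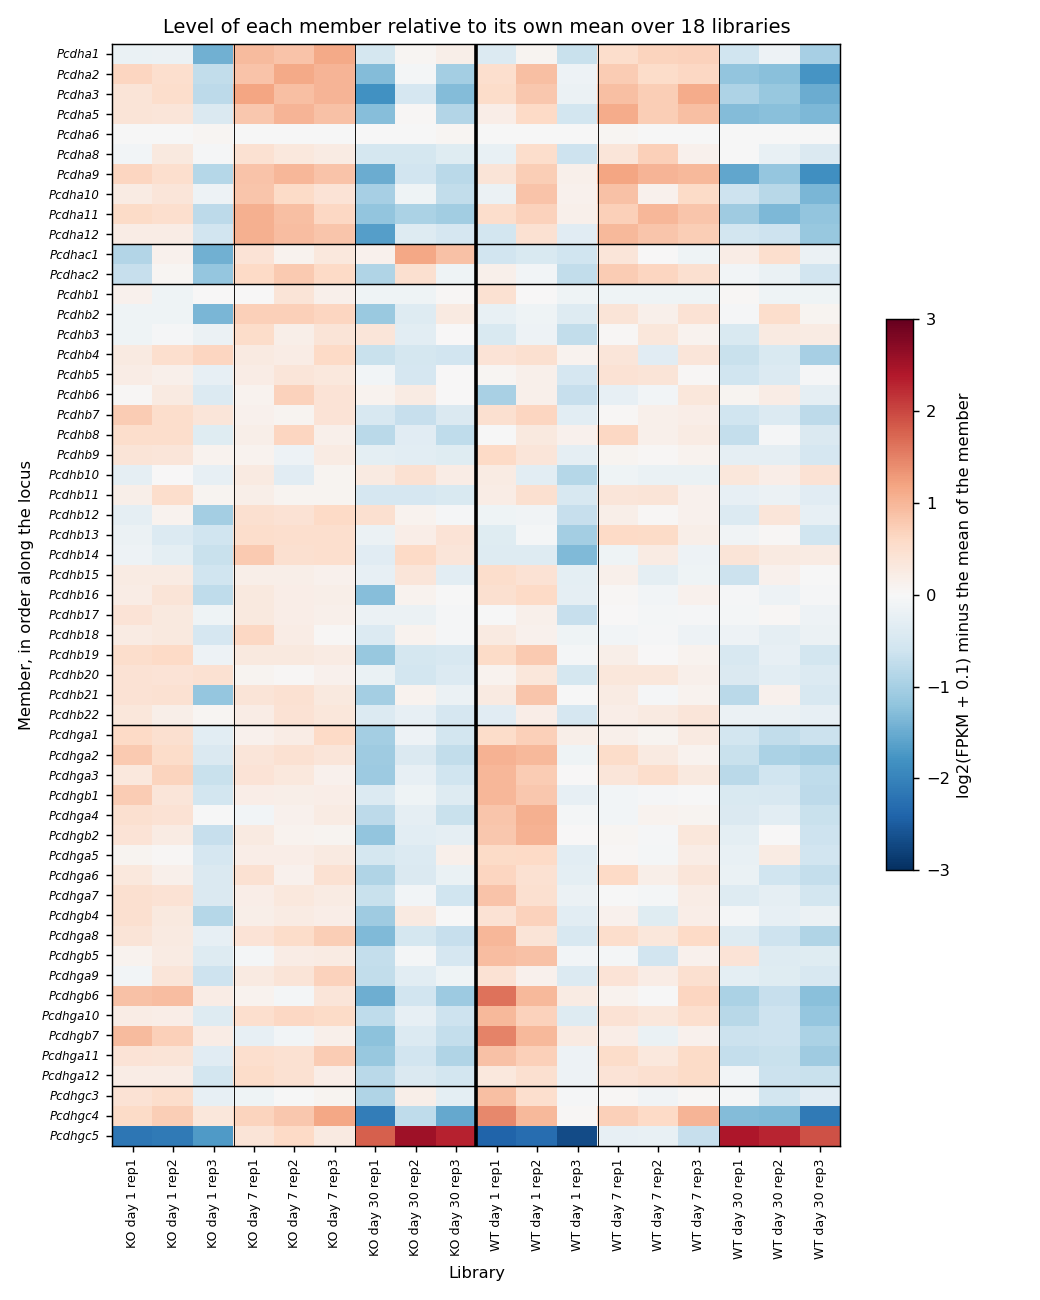
Level of each of the 55 members (rows, in order along the locus) in each of the 18 libraries (columns, KO-labelled left of WT-labelled, days 1, 7 and 30 within each), as log2(FPKM + 0.1) minus the member's mean over all libraries; red is above and blue below that mean. Most alpha rows are red on day 7 and blue on day 30 in both genotypes, the Pcdhgc5 row at the bottom is blue on day 1 and red on day 30, and for most members the third column of each day 1 group is paler or bluer than its neighbours.

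Between day 7 and day 30 most members tested fell, in both genotypes. In KO-labelled cortex 25 of 46 members (54.3%) were lower on day 30 than on day 7 and 1 was higher (limma adjusted p under 0.05), against 22% of all 13347 genes tested lower and 15.9% higher (37.9% in either direction). In WT-labelled cortex the count was also 25 lower (54.3%) and 1 higher, against 29.6% of all genes lower and 20.8% higher (50.4% in either direction). The same 23 members were lower in both genotypes, which is 92.0% of either list and 50.0% of the members tested, against 20.6% of all genes. Pcdhgc5 was the 1 member higher on day 30 in both. The median log2 change of the 46 members was -0.47 in KO-labelled and -0.39 in WT-labelled cortex, beside -0.05 and -0.08 for all genes. Without KO-labelled day 30 replicate 1 the KO-labelled count was 16 lower and 1 higher. With a laxer requirement of 0.1 FPKM, under which 53 members were tested, 26 fell and 1 rose in KO-labelled cortex and 28 fell and 1 rose in WT-labelled cortex. The share of all genes was not computed for fits that left out a library or used this requirement, here or below.

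From day 1 to day 7 the changes were fewer and leaned on the day 1 libraries. In KO-labelled cortex 12 of 46 members (26.1%) were higher on day 7 and 0 lower, against 19.3% and 29.4% of all genes (48.7% in either direction). In WT-labelled cortex 6 (13.0%) were higher and 1 (2.17%) lower, against 20.9% and 28% of all genes (48.9% in either direction). Pcdha5, Pcdha12, Pcdhac2, Pcdhb13 and Pcdhgc5 were higher in both, which is 41.7% of the KO-labelled list and 83.3% of the WT-labelled list, against 14.9% of all genes. Without KO-labelled day 1 replicate 3 the KO-labelled count was 6 higher and 1 lower. Same-numbered KO-labelled libraries of days 1 and 7 deviated together weakly (correlations of 0.143, 0.233 and 0.289 over genes). The labels do not say that they are paired. With the replicate as a block in a fit of these 6 libraries alone, 13 members were higher and 1 lower, against 24.1% and 32.6% of all genes (56.7% in either direction). Without WT-labelled day 1 replicate 3 the WT-labelled count was 3 higher and 11 lower, and without WT-labelled day 7 replicate 2 it was 4 higher and 0 lower. Leaving out all 3 libraries with the lowest length index gave 9 higher and 5 lower in KO-labelled cortex and 6 higher and 18 lower in WT-labelled cortex. Of the 18, 13 were gamma A, gamma B or C-type members, which supplied 12, 5 and 4 of the 46 members tested. The share of all genes was not computed for the fits that left out libraries, so a shift of the whole table cannot be told apart from one of the members. With all libraries the median log2 change of gamma A members was 0.23 in KO-labelled and -0.09 in WT-labelled cortex. That of gamma B members was -0.02 and -0.39. The number of gamma members called as lower in WT-labelled cortex between days 1 and 7 thus depends on these libraries. The rise of Pcdha12, Pcdhb13 and Pcdhgc5 was called in both genotypes under each of these omissions. Pcdhb13 and Pcdhgc5 were tested through the later days, on which they were higher, so the filter favoured a rise.

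**Figure D2:**
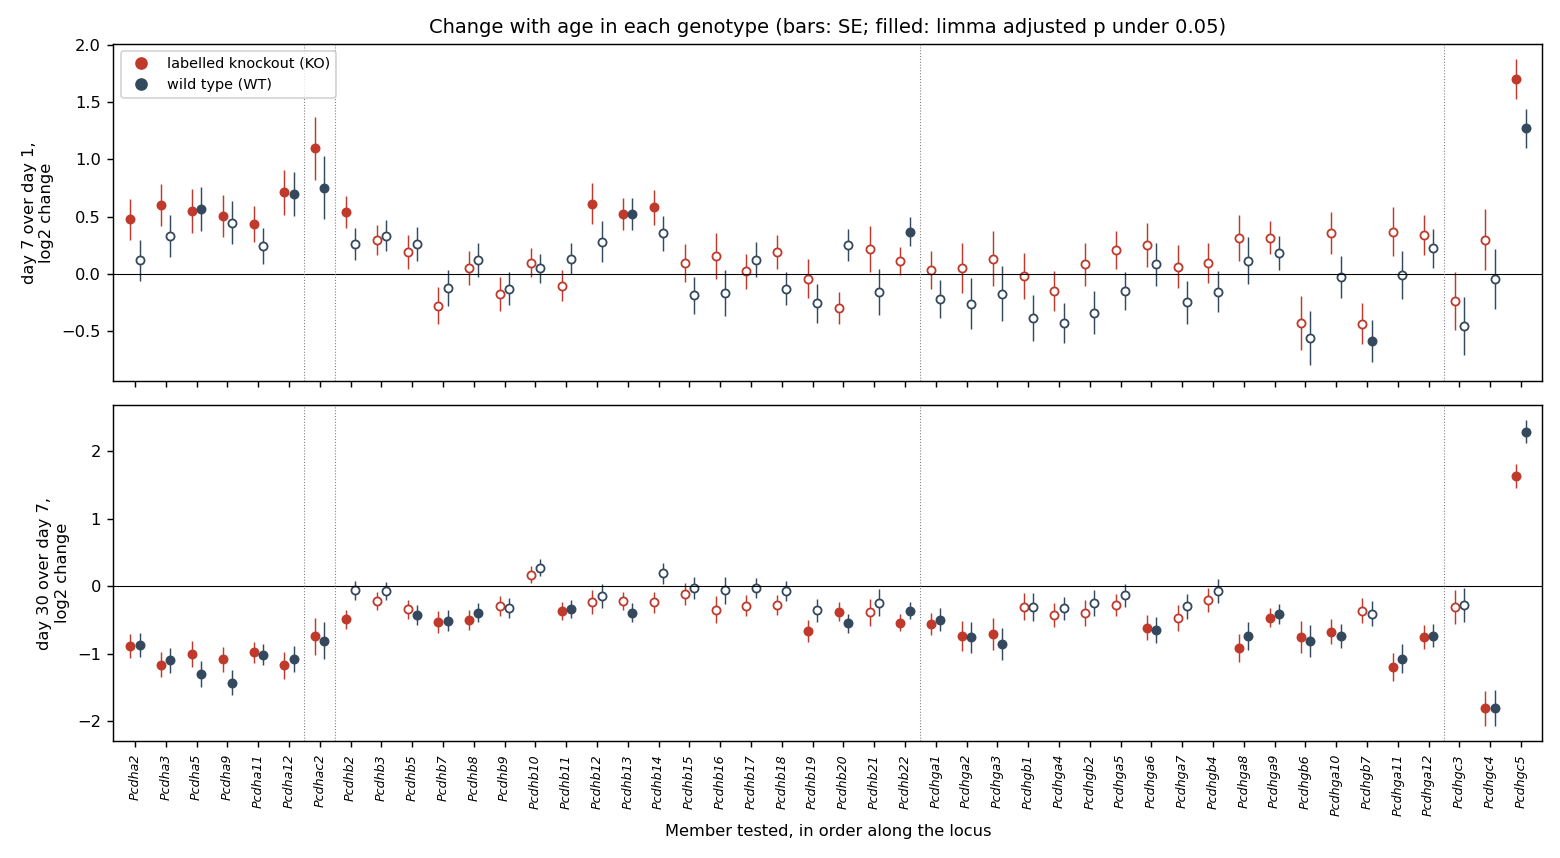
Log2 change of log2(FPKM + 1) for each of the 46 members tested (horizontal axis, in order along the locus; dotted lines part alpha, the alpha C-type, beta, gamma and gamma C-type members), day 7 over day 1 above and day 30 over day 7 below, KO-labelled in red left of WT-labelled in dark blue. Bars are standard errors and filled points have a limma adjusted p under 0.05; the alpha members sit between -0.87 and -1.44 in the lower panel and Pcdhgc5 at 1.63 and 2.29.

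The C-type members took separate courses. Pcdhgc5, a gamma C-type member of mature brain, rose at both steps. It had 0.772, 0.809 and 1.11 FPKM on day 1, 5.03, 5.85 and 4.65 FPKM on day 7 and 13.5, 22.7 and 19.2 FPKM on day 30 in KO-labelled cortex. In WT-labelled cortex it had 0.650, 0.712 and 0.510 FPKM on day 1, 3.23, 3.26 and 2.33 on day 7 and 21.2, 19.1 and 14.7 on day 30. No 2 ages overlapped in either genotype. Pcdhgc5 reached 1 FPKM in at least 3 libraries on days 7 and 30 only, so it was tested through the days on which it was high. Its log2 change was 1.70 ± 0.174 from day 1 to day 7 and 1.63 ± 0.174 from day 7 to day 30 in KO-labelled cortex (SE, limma adjusted p = 1.66e-06 and 3.09e-06). The WT-labelled changes were 1.27 ± 0.174 and 2.29 ± 0.174 (adjusted p = 2.53e-05 and 3.99e-08). The mean FPKM ratio of day 30 over day 7 was 3.58 in KO-labelled and 6.24 in WT-labelled cortex. Among the 55 members its rank by level lay between 25 and 48 on day 1 and between 5 and 18 on day 7. On day 30 it ranked 1 in 5 of the 6 libraries and 2 in WT-labelled replicate 3.

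Pcdhgc4, the gamma member tied to interneuron survival, went the opposite way. It had 6.17, 6.97 and 5.23 FPKM on day 1, 6.62, 7.34 and 9.40 on day 7 and 0.910, 2.40 and 1.35 on day 30 in KO-labelled cortex. WT-labelled cortex had 11.4, 8.19 and 4.25 FPKM on day 1, 6.87, 6.33 and 8.44 on day 7 and 1.60, 1.58 and 0.878 on day 30. All 6 day 30 libraries lay below all 12 earlier ones. Its log2 change from day 7 to day 30 was -1.81 ± 0.264 in both KO-labelled and WT-labelled cortex (SE, limma adjusted p = 5.96e-05 and 3.40e-05), a mean FPKM 5.01 and 5.33 times lower on day 30. From day 1 to day 7 it did not pass the test (log2 change 0.30 ± 0.264 in KO-labelled and -0.04 ± 0.264 in WT-labelled cortex, adjusted p = 0.369 and 0.905).

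Because Pcdhgc4 and Pcdhgc5 are neighbours in 1 cluster and share their constant exons, their ratio within a library was also taken. The ratio of Pcdhgc5 to Pcdhgc4 FPKM was 0.125, 0.116 and 0.213 on day 1, 0.760, 0.796 and 0.495 on day 7 and 14.9, 9.46 and 14.3 on day 30 in KO-labelled cortex. In WT-labelled cortex it was 0.0572, 0.0869 and 0.120 on day 1, 0.470, 0.515 and 0.276 on day 7 and 13.2, 12.1 and 16.7 on day 30. The 3 ages did not overlap in either genotype. Pcdhgc5 made up 1.42% ± 0.765, 6.89% ± 1.02 and 32.3% ± 0.998 of the summed FPKM of all gamma cluster members on days 1, 7 and 30 in KO-labelled cortex (SD, n = 3). The WT-labelled shares were 0.760% ± 0.179, 4.16% ± 0.939 and 31.9% ± 2.05.

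Pcdhgc3, the Axin1-binding member, showed no called change with age. It had 25.4, 27.0 and 15.7 FPKM on day 1, 17.3, 18.7 and 19.9 on day 7 and 9.95, 21.3 and 15.2 on day 30 in KO-labelled cortex. The WT-labelled libraries had 35.1, 26.6 and 18.2 FPKM on day 1, 19.2, 17.3 and 19.1 on day 7 and 18.1, 12.8 and 14.9 on day 30. Neighbouring ages overlapped in both genotypes, and no step with age passed the test (limma adjusted p between 0.146 and 0.458). Without WT-labelled day 1 replicate 3 its fall between days 1 and 7 was among the calls in WT-labelled cortex.

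Pcdhac2, the alpha C-type member that spaces out the axons of serotonergic neurons, peaked on day 7. It had 3.91, 6.63 and 2.81 FPKM on day 1, 9.76, 11.1 and 9.78 on day 7 and 3.36, 8.96 and 5.84 on day 30 in KO-labelled cortex. In WT-labelled cortex it had 7.10, 6.06 and 3.80 FPKM on day 1, 10.9, 9.99 and 9.0 on day 7 and 6.02, 5.59 and 4.23 on day 30. Day 7 overlapped neither other age in either genotype. The log2 change was 1.10 ± 0.275 and then -0.74 ± 0.275 in KO-labelled cortex (SE, limma adjusted p = 0.00358 and 0.0424), and 0.75 ± 0.275 and then -0.81 ± 0.275 in WT-labelled cortex (adjusted p = 0.0320 and 0.0213). The fall in KO-labelled cortex lost its call when any library of the comparison except day 30 replicate 2 was left out, with a log2 change of -0.44 (adjusted p = 0.229) without day 30 replicate 1. Its adjusted p was 0.0770, 0.112 and 0.0819 without day 7 replicates 1, 2 and 3 and 0.0820 without day 30 replicate 3. In WT-labelled cortex the rise lost its call without day 1 replicate 3 (0.53, adjusted p = 0.115) or day 7 replicate 1 or 2 (0.0943 and 0.0724), and the fall without day 7 replicate 1 or day 30 replicate 3 (0.0654 and 0.0860). The 4 monoaminergic neuron markers summed to 0.498 to 4.25 FPKM over the 18 libraries. Which cells held the Pcdhac2 RNA was not tested.

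Pcdhac1, the other alpha C-type member, stayed under the level needed for testing. It had 0.241, 0.578 and 0.130 FPKM on day 1, 0.729, 0.572 and 0.679 on day 7 and 0.584, 1.28 and 1.05 on day 30 in KO-labelled cortex. WT-labelled cortex had 0.321, 0.356 and 0.309 FPKM on day 1, 0.706, 0.530 and 0.469 on day 7 and 0.632, 0.780 and 0.452 on day 30. Days 1 and 7 did not overlap in WT-labelled cortex and did in KO-labelled cortex, through day 1 replicate 2.

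**Figure D3:**
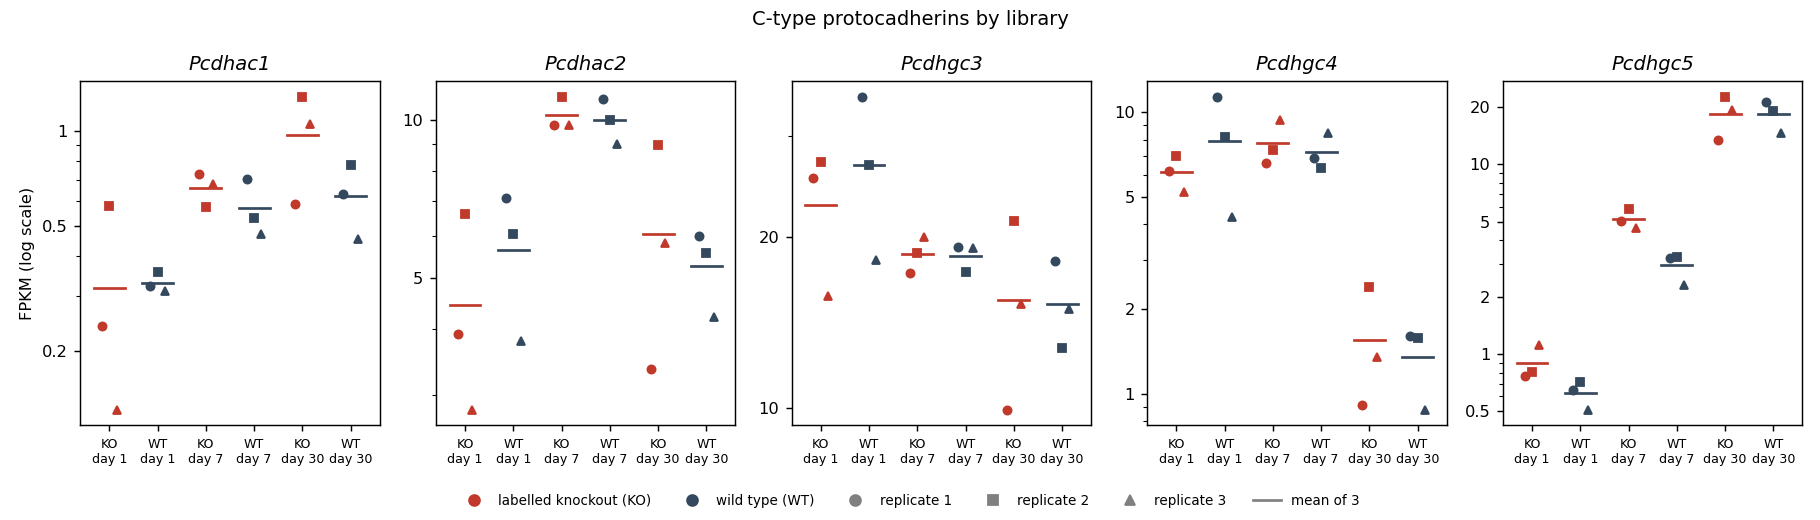
FPKM (log axis) of the 5 C-type members in each library, KO-labelled in red left of WT-labelled in dark blue at days 1, 7 and 30; symbols give the replicate and lines the mean of 3. Pcdhgc5 climbs to 13.5 to 22.7 FPKM on day 30, Pcdhgc4 drops to 0.878 to 2.40, and Pcdhac2 is highest on day 7.

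All 6 tested alpha members were lower on day 30 than on day 7 in both genotypes, against 22% of all genes in KO-labelled and 29.6% in WT-labelled cortex, and the count stayed at 6 when any 1 library of the 2 days was left out. Of these, Pcdha2, Pcdha3, Pcdha5, Pcdha9 and Pcdha11 reached 1 FPKM in at least 3 libraries on only 2 of the 3 days. They entered the test through the days on which they were high, so the count of 6 follows in part from the filter. From day 1 to day 7, 6 of 6 alpha members were higher in KO-labelled and 2 of 6 in WT-labelled cortex, against 19.3% and 20.9% of all genes. Fewer of these rises were called when some single libraries were left out, while that of Pcdha12 kept its call in each such fit in both genotypes. In KO-labelled cortex 1 alpha member, Pcdha12, was called without day 1 replicate 3, and 3, 2 and 3 were called without day 7 replicates 1, 2 and 3. In WT-labelled cortex Pcdha12 alone was called without day 1 replicate 3 or day 7 replicate 1. Their median log2 change from day 7 to day 30 was -1.04 in KO-labelled and -1.09 in WT-labelled cortex, and from day 1 to day 7 it was 0.53 and 0.39. Pcdha12, the alpha member with the highest mean level, had 2.03, 2.06 and 1.15 FPKM on day 1, 3.76, 3.42 and 3.16 on day 7 and 0.488, 1.31 and 1.20 on day 30 in KO-labelled cortex. The WT-labelled libraries had 1.17, 2.43 and 1.37 FPKM on day 1, 3.54, 3.17 and 2.97 on day 7 and 1.16, 1.11 and 0.736 on day 30. Every day 7 library lay above every library of the other ages. Its log2 change was 0.71 ± 0.195 and then -1.18 ± 0.195 in KO-labelled cortex (SE, limma adjusted p = 0.00660 and 0.000201), and 0.70 ± 0.195 and then -1.08 ± 0.195 in WT-labelled cortex (adjusted p = 0.00750 and 0.000248).

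Pcdha9 had the largest alpha fall in WT-labelled cortex. Its day 7 FPKM was 2.33, 2.58 and 2.33 and its day 30 FPKM 0.382, 0.804 and 0.675 in KO-labelled cortex, and in WT-labelled cortex they were 2.96, 2.64 and 2.56 on day 7 and 0.356, 0.501 and 0.275 on day 30. The ages did not overlap, with log2 changes of -1.08 ± 0.186 in KO-labelled and -1.44 ± 0.186 in WT-labelled cortex (limma adjusted p = 0.000267 and 1.06e-05). On day 1 it had 2.02, 1.80 and 0.640 FPKM in KO-labelled cortex and 1.68, 2.16 and 1.4 in WT-labelled cortex. Its rise to day 7 in KO-labelled cortex (0.51 ± 0.186, adjusted p = 0.0327) lost its call without day 1 replicate 3 (0.23, adjusted p = 0.194) and without any 1 of the 3 day 7 libraries (0.0638, 0.0944 and 0.0578). The rise in WT-labelled cortex did not pass (0.45 ± 0.186, adjusted p = 0.0569).

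Pcdha5, second among the alpha members by level, had 1.86, 1.82 and 1.00 FPKM on day 1, 2.53, 2.92 and 2.66 on day 7 and 0.514, 1.42 and 0.708 on day 30 in KO-labelled cortex. In WT-labelled cortex it had 1.60, 2.14 and 0.923 FPKM on day 1, 3.10, 2.39 and 2.66 on day 7 and 0.507, 0.530 and 0.484 on day 30. Day 7 again overlapped neither other age. The fall to day 30 was -1.0 ± 0.192 in KO-labelled and -1.30 ± 0.192 in WT-labelled cortex (log2, limma adjusted p = 0.000672 and 3.85e-05). The rise to day 7 was 0.55 ± 0.192 and 0.57 ± 0.192 (adjusted p = 0.0262 and 0.0223). Without day 1 replicate 3 that rise had an adjusted p of 0.128 in KO-labelled and 0.0934 in WT-labelled cortex. It was also lost without KO-labelled day 7 replicate 2 or 3 (0.0818 and 0.0527) and without WT-labelled day 7 replicate 1 (0.0850). The summed FPKM of the 10 alpha members fell to 2.56, 6.10 and 4.26 on day 30, against 16.2, 15.9 and 14.9 on day 7, in KO-labelled cortex, and to 3.65, 3.60 and 2.52, against 16.0, 14.2 and 14.8, in WT-labelled cortex.

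The beta members are single-exon genes and so the best separated from one another. They had smaller median changes than the alpha members at both steps with age. From day 7 to day 30 their median changes were also smaller than those of the gamma A members. Of 19 tested, 7 (36.8%) were lower on day 30 than on day 7 in each genotype, against 22% of all genes in KO-labelled and 29.6% in WT-labelled cortex, with median log2 changes of -0.35 and -0.24. Leaving out any 1 library of the 2 days took the count to 4 or 5 in KO-labelled and 2 to 5 in WT-labelled cortex, with the lowest count without WT-labelled day 30 replicate 3. From day 1 to day 7, 4 (21.1%) were higher in KO-labelled and 2 (10.5%) in WT-labelled cortex, against 19.3% and 20.9% of all genes, with medians of 0.11 and 0.12. The sum over 22 members was 41.8 ± 6.87, 45.1 ± 0.886 and 31.6 ± 1.52 FPKM on days 1, 7 and 30 in KO-labelled cortex and 37.9 ± 9.91, 40.9 ± 0.982 and 31.9 ± 2.55 in WT-labelled cortex (SD, n = 3).

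Pcdhb17, the highest beta member, had 6.08, 5.61 and 4.16 FPKM on day 1, 5.65, 5.25 and 5.07 on day 7 and 4.04, 4.04 and 4.44 on day 30 in KO-labelled cortex. WT-labelled cortex had 4.56, 5.13 and 2.79 FPKM on day 1, 4.59, 4.42 and 4.49 on day 7 and 4.37, 4.71 and 4.12 on day 30. No step with age passed the test (limma adjusted p between 0.151 and 0.925). Pcdhb20 had 5.61, 5.44 and 5.68 FPKM on day 1, 4.33, 4.21 and 4.47 on day 7 and 3.53, 2.78 and 3.05 on day 30 in KO-labelled cortex, where the ages did not overlap. The WT-labelled libraries had 4.45, 5.19 and 2.82 FPKM on day 1, 5.24, 5.24 and 4.57 on day 7 and 3.02, 3.25 and 3.06 on day 30, and only days 7 and 30 stood apart from one another. Its fall to day 30 was -0.38 ± 0.141 in KO-labelled and -0.55 ± 0.141 in WT-labelled cortex (log2, adjusted p = 0.0446 and 0.00403). The KO-labelled fall lost its call when any library of the comparison except day 30 replicate 1 was left out, with adjusted p-values between 0.0802 and 0.132.

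Pcdhb13 had the largest beta rise to day 7 in WT-labelled cortex. It reached 1 FPKM in at least 3 libraries on days 7 and 30 only, so it was tested through the days on which it was higher. It had 0.976, 0.815 and 0.698 FPKM on day 1, 1.64, 1.62 and 1.61 on day 7 and 0.971, 1.30 and 1.52 on day 30 in KO-labelled cortex. In WT-labelled cortex it had 0.838, 1.07 and 0.502 FPKM on day 1, 1.73, 1.71 and 1.28 on day 7 and 1.04, 1.15 and 0.704 on day 30. Days 1 and 7 did not overlap in either, and the log2 change was 0.52 ± 0.139 in both (limma adjusted p = 0.00528 in KO-labelled and 0.00549 in WT-labelled cortex). Its fall to day 30 passed in WT-labelled cortex (-0.39 ± 0.139, adjusted p = 0.0267) and not in KO-labelled cortex (-0.22 ± 0.139, adjusted p = 0.227), and the difference between these falls was 0.17 ± 0.197 (adjusted p = 1.00). The WT-labelled fall lost its call without day 7 replicate 1 or 2 or day 30 replicate 3 (adjusted p = 0.0887, 0.0853 and 0.131).

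Among gamma A members 9 of 12 (75.0%) were lower on day 30 than on day 7 in each genotype, against 22% of all genes in KO-labelled and 29.6% in WT-labelled cortex, with median log2 changes of -0.64 in KO-labelled and -0.69 in WT-labelled cortex. Without KO-labelled day 30 replicate 1 the KO-labelled count was 4. Of 5 gamma B members tested only Pcdhgb6 was lower (20%), which is under the share of all genes in both genotypes, with medians of -0.37 and -0.31. Between days 1 and 7 no gamma A member passed in either genotype. Pcdhga11, the highest gamma A member, had 6.76, 6.62 and 3.95 FPKM on day 1, 7.22, 6.94 and 8.62 on day 7 and 2.25, 3.36 and 2.67 on day 30 in KO-labelled cortex. WT-labelled cortex had 9.35, 8.43 and 4.58 FPKM on day 1, 7.45, 6.32 and 7.60 on day 7 and 3.05, 3.14 and 2.37 on day 30. Day 30 lay below both earlier ages without overlap. Its fall from day 7 was -1.20 ± 0.214 in KO-labelled and -1.08 ± 0.214 in WT-labelled cortex (log2, limma adjusted p = 0.000378 and 0.000552).

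Pcdhga3 followed it by level among gamma A members. It had 4.41, 5.63 and 2.20 FPKM on day 1, 4.73, 4.40 and 3.89 on day 7 and 1.62, 2.97 and 2.29 on day 30 in KO-labelled cortex, and 7.11, 6.04 and 3.56, then 4.55, 5.11 and 4.36, then 1.97, 2.32 and 2.05 FPKM on the same days in WT-labelled cortex. Day 30 stood below day 7 without overlap. The fall was -0.72 ± 0.238 in KO-labelled and -0.86 ± 0.238 in WT-labelled cortex (log2, limma adjusted p = 0.0256 and 0.00629). The KO-labelled call was lost without day 7 replicate 1 or 2 (adjusted p = 0.0779 and 0.0632) or day 30 replicate 1 or 3 (0.115 and 0.0578).

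The gamma B sum averaged 10.2 ± 3.19, 8.28 ± 0.519 and 4.85 ± 1.38 FPKM on days 1, 7 and 30 in KO-labelled cortex and 13.5 ± 5.31, 8.07 ± 1.34 and 5.01 ± 0.741 in WT-labelled cortex (SD, n = 3). Pcdhgb6 had 4.22, 4.34 and 2.65 FPKM on day 1, 2.41, 2.13 and 2.89 on day 7 and 0.751, 1.47 and 1.00 on day 30 in KO-labelled cortex. The WT-labelled libraries had 7.13, 4.47 and 2.66 FPKM on day 1, 2.43, 2.23 and 3.53 on day 7 and 1.11, 1.35 and 0.884 on day 30. Days 1 and 7 overlapped through replicate 3 of day 1, and day 30 lay below both. The fall from day 7 to day 30 was -0.76 ± 0.239 in KO-labelled and -0.81 ± 0.239 in WT-labelled cortex (log2, limma adjusted p = 0.0198 and 0.00970). It lost its call without KO-labelled day 7 replicate 3 or day 30 replicate 1 or 3 (adjusted p = 0.0766, 0.0829 and 0.0550), and without WT-labelled day 7 replicate 3 (0.0538).

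Pcdhgb7 had 2.33, 1.97 and 1.38 FPKM on day 1, 0.967, 1.10 and 1.31 on day 7 and 0.442, 0.853 and 0.667 on day 30 in KO-labelled cortex. In WT-labelled cortex it had 3.43, 2.39 and 1.42 FPKM on day 1, 1.35, 0.999 and 1.28 on day 7 and 0.714, 0.722 and 0.554 on day 30. None of the 3 ages overlapped in either genotype. It was the 1 member lower on day 7 than on day 1 in WT-labelled cortex (-0.59 ± 0.183 log2, limma adjusted p = 0.0138), and in KO-labelled cortex the change was -0.44 ± 0.183 (adjusted p = 0.0584). The WT-labelled call was lost without day 1 replicate 1 (-0.38, adjusted p = 0.0781) or day 7 replicate 2 (adjusted p = 0.0589), while without day 1 replicate 3 the change was -0.81 (adjusted p = 0.000430). Pcdhgb1 had 2.5, 1.85 and 0.941 FPKM on day 1, 1.64, 1.63 and 1.66 on day 7 and 1.05, 1.30 and 1.07 on day 30 in KO-labelled cortex, and 2.92, 2.59 and 1.18, then 1.35, 1.4 and 1.42, then 1.00, 0.997 and 0.789 FPKM in WT-labelled cortex. Days 7 and 30 did not overlap, but no step passed (limma adjusted p between 0.121 and 0.941).

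**Figure D4:**
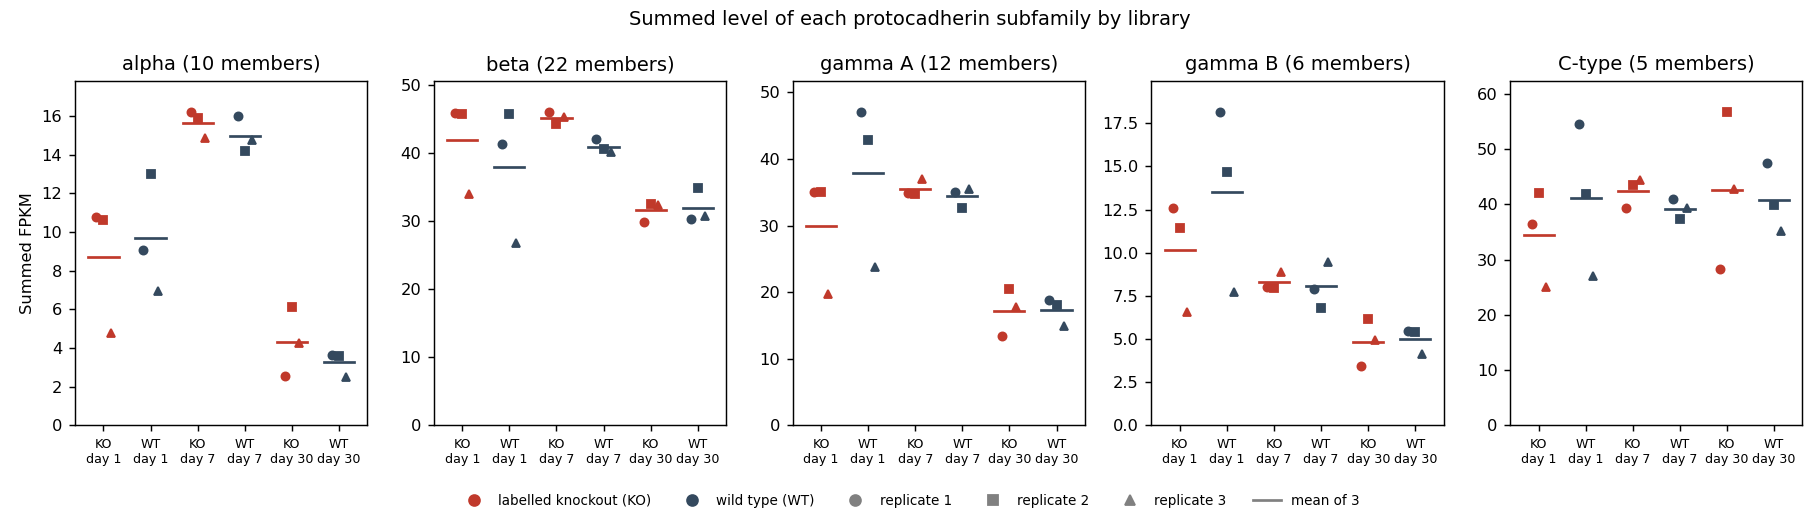
Summed FPKM (axis from 0) of the alpha, beta, gamma A, gamma B and C-type members in each library, KO-labelled in red left of WT-labelled in dark blue at days 1, 7 and 30, with symbols for the replicate and lines for the mean of 3. The alpha sum peaks on day 7 at 14.2 to 16.2 FPKM and is 2.52 to 6.10 on day 30, while the C-type sum on day 30 spans 28.3 to 56.7 FPKM; day 1 replicate 3 is the lowest of its group in every panel.

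The make-up of the protocadherin pool differed between ages. Summed over 55 members, FPKM was 125 ± 30.6, 147 ± 3.06 and 101 ± 22.3 on days 1, 7 and 30 in KO-labelled cortex and 140 ± 42.0, 138 ± 5.24 and 98.3 ± 9.66 in WT-labelled cortex (SD, n = 3). The alpha share of that sum was 6.76% ± 1.27, 10.7% ± 0.685 and 4.16% ± 0.852 in KO-labelled cortex and 7.02% ± 1.51, 10.9% ± 0.351 and 3.29% ± 0.359 in WT-labelled cortex. The C-type share was 27.6% ± 1.57, 28.9% ± 1.37 and 41.6% ± 4.96 in KO-labelled cortex and 29.3% ± 2.77, 28.5% ± 0.288 and 41.4% ± 3.10 in WT-labelled cortex. The C-type sum on days 7 and 30 was 42.5 ± 2.67 and 42.6 ± 14.2 FPKM in KO-labelled cortex. In WT-labelled cortex it was 39.2 ± 1.74 and 40.8 ± 6.27 FPKM. Pcdhgc5 alone went from 3.52% to 18.3% of the sum over 55 members in KO-labelled cortex and from 2.14% to 18.5% in WT-labelled cortex. The gamma A share was 23.7% ± 1.58, 24.2% ± 0.441 and 17.2% ± 0.315 in KO-labelled cortex and 26.8% ± 0.959, 25.0% ± 0.421 and 17.5% ± 0.399 in WT-labelled cortex. The beta share lay between 24.3% and 38.5% over all 18 libraries. Day 30 libraries did not overlap day 7 libraries in the alpha, C-type and gamma A shares. The alpha share of day 1 replicate 3 was 5.31% in KO-labelled cortex, the lowest of its group, and 7.52% in WT-labelled cortex, between the other two. The number of members at 1 FPKM or more was 27 to 41, 44 to 45 and 20 to 34 on days 1, 7 and 30 in KO-labelled cortex and 30 to 42, 40 to 44 and 24 to 32 in WT-labelled cortex.

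Markers of other cell types moved with age as well. Oligodendrocyte markers, all 6 detected, summed to 11.7 to 24.8, 59.1 to 85.0 and 896 to 959 FPKM on days 1, 7 and 30 in KO-labelled cortex (Mog was at 0 in all 3 day 1 libraries) and to 8.78 to 10.5, 30.2 to 52.7 and 582 to 865 FPKM in WT-labelled cortex. Astrocyte markers, all 6 detected, summed to 101 to 129, 294 to 306 and 557 to 586 FPKM in KO-labelled cortex and 50.9 to 98.4, 257 to 297 and 611 to 656 FPKM in WT-labelled cortex. Inhibitory neuron markers, all 6 detected, summed to 89.8 to 136, 61.0 to 83.1 and 85.4 to 114 FPKM in KO-labelled cortex and 41.6 to 115, 55.5 to 69.7 and 83.5 to 96.9 FPKM in WT-labelled cortex. Within that sum Dlx1, an early interneuron transcription factor, had 30.8 to 46.2, 8.65 to 11.2 and 4.60 to 5.32 FPKM on days 1, 7 and 30 in KO-labelled cortex and 14.3 to 40.4, 9.72 to 18.7 and 3.96 to 5.22 in WT-labelled cortex, and Lhx6 and Dlx2 were likewise lowest on day 30. Gad1, which makes the transmitter GABA, had 13.7 to 26.2, 19.3 to 28.9 and 42.6 to 72.1 FPKM in KO-labelled cortex and 4.73 to 15.1, 15.6 to 21.7 and 49.0 to 58.7 in WT-labelled cortex. Pan-neuronal markers, all 6 detected, summed to 1033 to 1809 FPKM over all 18 libraries, a sum whose members moved apart. Dcx, a marker of young neurons, had 187 to 258, 73.7 to 86.8 and 4.16 to 7.73 FPKM in KO-labelled cortex and 140 to 263, 88.9 to 147 and 6.01 to 6.26 in WT-labelled cortex. Snap25, a synaptic protein, had 89.1 to 96.8, 252 to 281 and 544 to 1207 FPKM in KO-labelled cortex and 42.3 to 73.4, 173 to 258 and 801 to 973 in WT-labelled cortex. These markers were picked after their values were seen. The part of these shifts in the protocadherin changes was not tested.

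Knockout and wild type labels were compared next, the question of the study's design. No member passed on any day. On day 1, 0 of 46 members were called, against 0.517% of all genes, on day 7 0 against 0.00749% and on day 30 0 against 0.0225% (limma). The mean of the 3 daily differences gave 0 against 0.0974% and the genotype by day interaction 0 against 0.015%. At an unadjusted p under 0.05 the counts were 2, 2, 0, 1 and 2, against 21.7%, 3.52%, 3.59%, 10.1% and 9.18% of all genes. No difference between genotypes in a step with age passed for any member either (0 of 46 from day 1 to day 7, against 0.00749%, and 0 from day 7 to day 30, against 0%). At an unadjusted p under 0.05 the counts were 1 and 2, against 12.6% and 4.69%. The largest of these differences was that of Pcdhgc5 from day 7 to day 30, at -0.66 ± 0.246 (log2, KO-labelled minus WT-labelled, SE). Over the 46 members the log2 difference of KO-labelled minus WT-labelled cortex ran from -0.40 to 0.38 on day 1, from -0.17 to 0.65 on day 7 and from -0.24 to 0.29 on day 30, with standard errors of 0.125 to 0.275. The alpha sum on day 7 was 15.7 ± 0.691 FPKM in KO-labelled and 15 ± 0.927 FPKM in WT-labelled cortex.

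Pcdhgc5 on day 7 showed the greatest genotype difference among the 46 members tested on the log2(FPKM + 1) scale. On the ratio of means Pcdha2, at 0.438 FPKM in KO-labelled and 0.234 FPKM in WT-labelled cortex on day 30, stood higher at 1.87. For Pcdhgc5 on day 7 the 5.03, 5.85 and 4.65 FPKM in KO-labelled cortex all lay above the 3.23, 3.26 and 2.33 FPKM in WT-labelled cortex, a ratio of means of 1.76. The log2 difference was 0.65 ± 0.174 with an adjusted p of 0.835 (limma), and the exact two-sided permutation p was 0.1, the smallest that 3 against 3 libraries allow. Same-numbered day 7 libraries of the genotypes deviated together (correlations of 0.333, 0.337 and 0.530 over genes), but the labels do not say that they are paired. With the replicate as a block in a fit of those 6 libraries, Pcdhgc5 was the 1 member called (0.65, limma adjusted p = 0.0258), against 3.75% of all genes (1.45% higher and 2.3% lower). That call rests on an assumed pairing. Without the block the same 6 libraries gave 0 calls, against 0.0674% of all genes, and an adjusted p of 0.207 for Pcdhgc5. Over the alternatives tried the adjusted p ran up to 1.00. On day 1 the groups did not overlap either, with means of 0.898 ± 0.188 FPKM in KO-labelled and 0.624 ± 0.104 FPKM in WT-labelled cortex (log2 difference 0.22 ± 0.174, adjusted p = 0.458). On day 30 they were level, 18.5 ± 4.66 FPKM in KO-labelled and 18.3 ± 3.33 FPKM in WT-labelled cortex (log2 difference -0.00 ± 0.174, adjusted p = 1.00). On day 7 the oligodendrocyte sum was also higher without overlap in KO-labelled libraries, at 59.1, 85.0 and 69.9 FPKM against 37.7, 52.7 and 30.2 in WT-labelled libraries. Microglia markers, 5 of 5 detected, summed to 66.2, 72.4 and 48.9 FPKM in KO-labelled libraries against 45.6, 46.3 and 33.0 in WT-labelled libraries. KO-labelled day 7 replicate 3 also carried choroid plexus markers at 140 FPKM, against at most 0.995 FPKM in the other day 7 libraries. WT-labelled day 7 replicate 3, which had the lowest Pcdhgc5 of that day, carried olfactory bulb markers at 19.5 FPKM, against at most 3.93 FPKM in the other day 7 libraries. The pan-neuronal sum was lower without overlap in KO-labelled libraries, at 1435, 1442 and 1525 FPKM against 1606, 1606 and 1774 in WT-labelled libraries. Its members did not share a direction on that day. By the ranges given above, Dcx was lower without overlap in KO-labelled libraries, while the range of Snap25 was higher, with overlap. The part of these cells in the Pcdhgc5 difference was not tested.

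The other differences by label did not pass the test, but their signs were uneven. On day 1 all 12 gamma A and all 5 gamma B members tested were lower in KO-labelled cortex, with median log2 differences of -0.22 each, while 12 of 19 beta members were higher (median 0.05). Of all genes 52.7% were higher in KO-labelled cortex on day 1. On day 7, 35 of 46 members were higher (median 0.07, beside -0.01 for all genes, of which 47.4% were higher). All members were measured in the same libraries, so their signs are not independent, and the gamma members also share sequence. Replicate 3 of each genotype on day 1 had the lowest value of its group for every gamma A and gamma B member. On day 7 all KO-labelled libraries lay above all WT-labelled ones for 12 of 46 members tested (26.1%), 8 of them among the 19 beta members (42.1%), against 9.74% of all genes, and below them for 1 (2.17%), Pcdhb20, against 10.9%. Over all 55 members the counts were 14 above and 1 below. On day 1 it was 2 of 46 above (4.35%), Pcdhb20 and Pcdhgc5, against 8.92%, and 0 below, against 5.87%. On day 30 Pcdhgb1 lay above (2.17%), against 9.35%, and Pcdhb11 and Pcdhb22 below (4.35%), against 5.51%. Pcdhb14, chosen after its values were seen, had 2.15, 1.74 and 1.75 FPKM in KO-labelled and 1.10, 1.45 and 1.08 FPKM in WT-labelled cortex on day 7 (log2 difference 0.38 ± 0.153, limma adjusted p = 1.00). Pcdhb17 on day 7 had a log2 difference of 0.20 ± 0.154 and Pcdhgb1 of 0.15 ± 0.202 (adjusted p = 1.00 each).

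On day 1, calls by label appeared when WT-labelled replicate 2 or 3 was left out, and under no other alternative run. Without WT-labelled day 1 replicate 2, Pcdhb20 and Pcdhb22 were called as higher in KO-labelled cortex (log2 difference 0.53 and 0.46, limma adjusted p = 0.0268 and 0.0212), against 0.38 and 0.31 (adjusted p = 0.148 and 0.182) with all libraries. Without WT-labelled day 1 replicate 3, Pcdhga10 was called as lower (-0.56, adjusted p = 0.0461), against -0.29 (adjusted p = 0.352) with it. Pcdhb22 had 3.58, 3.21 and 2.95 FPKM in KO-labelled and 2.22, 3.24 and 1.96 FPKM in WT-labelled cortex on day 1, and Pcdhga10 had 1.58, 1.54 and 0.994 FPKM in KO-labelled and 2.73, 2.22 and 0.991 FPKM in WT-labelled cortex. Both were chosen after their values were seen, and both pairs of groups overlapped with all libraries kept. Without the 3 libraries of lowest length index none of these passed (adjusted p = 0.404 for Pcdhb20, 0.324 for Pcdhb22 and 0.0997 for Pcdhga10).

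**Figure D5:**
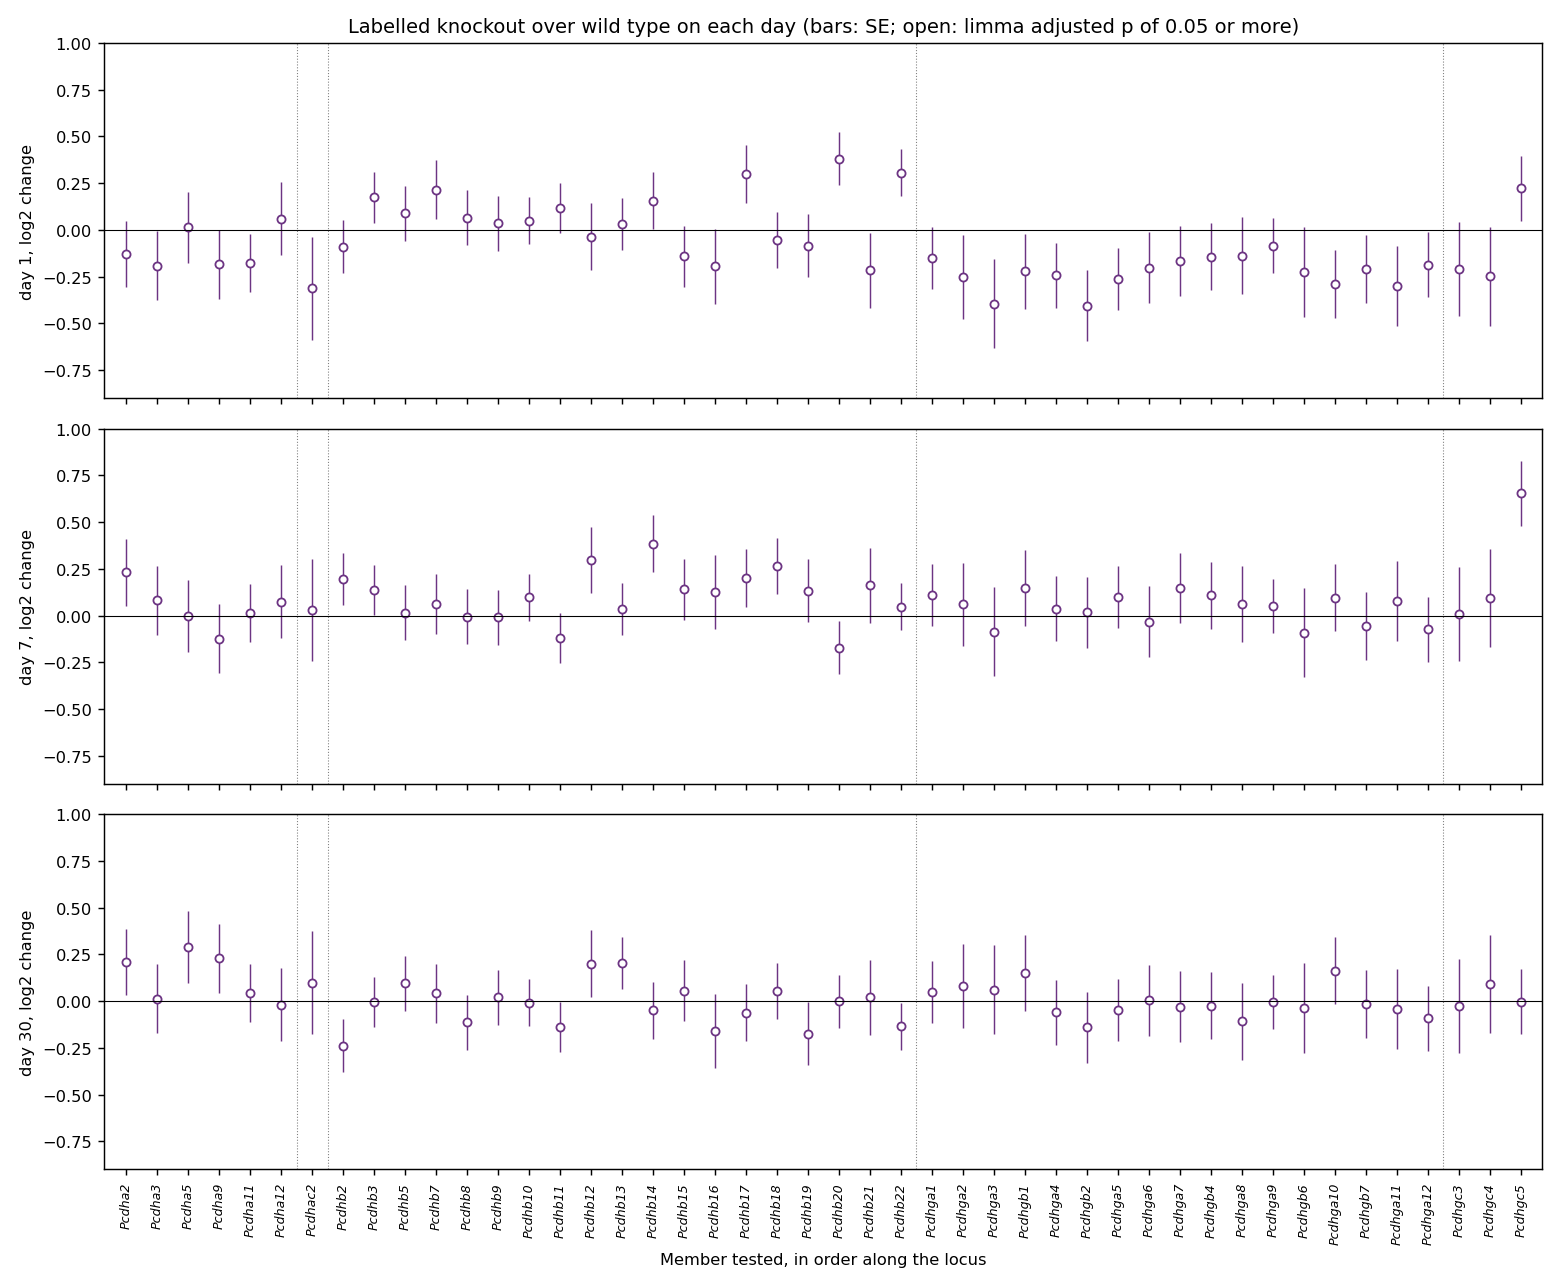
Log2 difference of KO-labelled over WT-labelled cortex, on the log2(FPKM + 1) scale, for each of the 46 members tested (horizontal axis, in order along the locus) on day 1, day 7 and day 30 from top to bottom; bars are standard errors, and open points have a limma adjusted p of 0.05 or more. All points are open; the highest is Pcdhgc5 on day 7 at 0.65.

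Genes that govern promoter choice fell early. Of 21 such genes 20 were tested, Dnmt3b falling under the filter. From day 1 to day 7, 15 fell and 1 rose in KO-labelled cortex and 17 fell and 1 rose in WT-labelled cortex, so that 75.0% and 85.0% fell against 29.4% and 28% of all genes, with median log2 changes of -0.56 and -0.74. Trim28, a co-repressor that recruits the methyltransferase Setdb1, had 39.4 ± 3.84 FPKM on day 7 and 98.9 ± 9.34 on day 1 in KO-labelled cortex, and 44.8 ± 5.48 on day 7 and 90.1 ± 14.7 on day 1 in WT-labelled cortex (log2 change -1.31 ± 0.127 and -0.98 ± 0.127, limma adjusted p = 1.08e-06 and 1.51e-05). Rad21, a cohesin subunit, fell by 0.79 ± 0.105 in KO-labelled and 0.80 ± 0.105 in WT-labelled cortex (adjusted p = 1.75e-05 and 1.62e-05). The 1 that rose was Dnmt3a, a DNA methyltransferase (1.23 in KO-labelled and 0.87 in WT-labelled cortex, adjusted p = 0.00146 and 0.0141; named after its value was seen). From day 7 to day 30, 6 fell and 0 rose in KO-labelled cortex and 7 fell and 0 rose in WT-labelled cortex (30.0% and 35.0% lower, against 22% and 29.6% of all genes). No gene of the list was called by label (0 of 20 on each day, limma). At an unadjusted p under 0.05 there were 4 on day 1, or 20% against 21.7% of all genes, 0 on day 7 and 0 on day 30.

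Partners of the protocadherins showed no common direction. Of 23 genes for binding, cleavage and signalling, 8 rose and 5 fell from day 1 to day 7 in KO-labelled cortex and 7 rose and 4 fell in WT-labelled cortex. The share that rose was 34.8% and 30.4%, against 19.3% and 20.9% of all genes, and the share that fell 21.7% and 17.4%, against 29.4% and 28%. From day 7 to day 30, 4 rose and 6 fell in KO-labelled (17.4% and 26.1%, against 15.9% and 22% of all genes) and 3 rose and 8 fell in WT-labelled cortex (13.0% and 34.8%, against 20.8% and 29.6%). Ptk2b, a focal adhesion family kinase that alpha and gamma tails bind, had 37.9 ± 5.68 FPKM on day 7 and 14.7 ± 1.38 on day 1 in KO-labelled cortex, and 37.3 ± 7.17 on day 7 and 13.6 ± 1.26 on day 1 in WT-labelled cortex (limma adjusted p = 4.26e-05 and 2.61e-05). Marcks, an actin regulator downstream of the gamma cluster, was at 46.8 ± 4.61 FPKM on day 30 and 109 ± 8.20 on day 7 in KO-labelled cortex, and at 41.9 ± 1.95 on day 30 and 117 ± 18.2 on day 7 in WT-labelled cortex (adjusted p = 1.02e-05 and 8.02e-07). None of the 23 was called by label (0 on each day, limma). At an unadjusted p under 0.05 there were 4, 0 and 1 on days 1, 7 and 30, or 17.4%, 0% and 4.35% against 21.7%, 3.52% and 3.59% of all genes.

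Protocadherins outside the clusters and the genes that flank the locus were read beside the members. Of 12 non-clustered protocadherins, 6 rose and 1 fell from day 1 to day 7 in KO-labelled cortex and 5 rose and 2 fell in WT-labelled cortex. The share that rose was 50.0% and 41.7%, against 19.3% and 20.9% of all genes, and the share that fell 8.33% and 16.7%, against 29.4% and 28%. From day 7 to day 30, 1 rose and 5 fell in KO-labelled (8.33% and 41.7%, against 15.9% and 22% of all genes) and 2 rose and 4 fell in WT-labelled cortex (16.7% and 33.3%, against 20.8% and 29.6%). Pcdh19, a protocadherin whose loss causes epilepsy in people, had 3.05 ± 1.27 FPKM on day 30 and 12.6 ± 1.80 on day 7 in KO-labelled cortex, and 3.16 ± 0.123 on day 30 and 11.6 ± 1.02 on day 7 in WT-labelled cortex (limma adjusted p = 8.54e-06 and 1.31e-05). Of 15 flanking genes 13 were tested, Dnd1 and Slc25a2 falling under the filter. From day 7 to day 30, 2 rose and 3 fell in KO-labelled (15.4% and 23.1%, against 15.9% and 22% of all genes) and 2 rose and 5 fell in WT-labelled cortex (15.4% and 38.5%, against 20.8% and 29.6%). From day 1 to day 7, 2 rose and 8 fell in KO-labelled (15.4% and 61.5%, against 19.3% and 29.4%) and 3 rose and 4 fell in WT-labelled cortex (23.1% and 30.8%, against 20.9% and 28%). Taf7, a general transcription factor subunit encoded between the beta and gamma clusters, had 2.04 ± 0.209 FPKM on day 30 and 3.61 ± 0.126 on day 7 in KO-labelled cortex, and 1.85 ± 0.148 on day 30 and 4.17 ± 0.233 on day 7 in WT-labelled cortex (adjusted p = 0.000108 and 1.81e-06). Neither list had a gene called by label on any day (0 of 12 and 0 of 13, limma; 1, 1 and 0 and 3, 0 and 2 at an unadjusted p under 0.05 on days 1, 7 and 30, or 8.33%, 8.33% and 0% and 23.1%, 0% and 15.4%, against 21.7%, 3.52% and 3.59% of all genes).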

How the data were processed

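The 18 libraries are RNA sequencing profiles of mouse cortex. The deposited values are FPKM, computed by the authors per gene and library with no pooling. The submitters' processing notes name Bowtie2, RSEM 1.3.1, DESeq2 1.4.5 and the build GRCm39, without roles. The annotation release and the handling of reads shared by several genes are not stated there. Total FPKM ran from 313919 to 394975 per library. Read counts were not used here, so depth is unknown and no counting interval is given.

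FPKM was taken as log2(FPKM + 1), which understates the change of low genes. The 13347 genes that reached 1 FPKM in 3 or more libraries entered a limma 3.58.1 fit (R 4.3.3, trend option on) of 6 group means to all 18 libraries. Adjusted p-values are two-sided and follow Benjamini and Hochberg over 13347 genes, with a threshold of 0.05. The fit was tested on simulated data. The table was matched to locus order for 55 of 55 members (RefSeq, GRCm38.p6) and to GENCODE M21 transcripts for 54.

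Members and lists were chosen with earlier results of these data known. Members named with all values were the 5 C-type members and, in each other group, the pair with the highest mean FPKM and the largest called rise and fall with age in WT-labelled cortex. The replicate numbers come from the labels. The labels do not say that same-numbered libraries are paired. Same-numbered libraries deviated together between genotypes on day 7 (correlations of 0.333, 0.337 and 0.530 over genes) and between days 1 and 7 in KO-labelled cortex (0.143, 0.233 and 0.289). A replicate block was therefore also fitted to the 6 libraries of each of these comparisons. Between genotypes the correlations were 0.0252, 0.131 and 0.0976 on day 1 and -0.336, -0.0414 and -0.0576 on day 30. Libraries of different number were not compared. Other alternatives were the pseudocount, the filter, quantile normalization, the libraries fitted and leaving out each library.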

Additional observations from a re-analysis of the deposited data

Results flagged for a closer look

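The difference of KO-labelled minus WT-labelled cortex for Pcdhb20 ran in opposite directions on 2 days, with no overlap of the libraries on either. It was 0.38 ± 0.141 on day 1 and -0.17 ± 0.141 on day 7 (log2, SE, limma adjusted p = 0.148 and 1.00). Pcdhb20 had 5.61, 5.44 and 5.68 FPKM in KO-labelled against 4.45, 5.19 and 2.82 FPKM in WT-labelled cortex on day 1, and 4.33, 4.21 and 4.47 FPKM in KO-labelled against 5.24, 5.24 and 4.57 FPKM in WT-labelled cortex on day 7. The difference between the 2 days, as the KO-labelled minus WT-labelled change from day 1 to day 7, was -0.55 ± 0.199 and did not pass the test (limma adjusted p = 0.344, unadjusted p = 0.0135). The genotype by day interaction of Pcdhb20 over all 3 days had an adjusted p of 0.536.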

How the results depend on the processing

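The counts of called members within 1.5 times the first count under an alternative numbered 93 of 97, leave-one-out fits aside. The exceptions were WT-labelled day 7 against day 1, at 7 calls, with 17 (10 higher, 7 lower) when the length index was a covariate, 24 (6 higher, 18 lower) without the 3 libraries lowest in it and 3 (3 higher, 0 lower) when only those 6 libraries were fitted. The share of all genes was not computed for these 3 alternatives. The other exception was KO-labelled against WT-labelled on day 7, at 0 calls, with 1 when the 6 libraries of that day were fitted with the replicate as a block. The cause was not tested. The length index, its library set, the 6-library blocks and the pseudocount of 0.1 with a filter of 0.1 were chosen after seeing the data. Leaving out 1 library gave 7 to 13 calls for KO-labelled and 4 to 14 for WT-labelled day 7 against day 1, 17 to 26 and 18 to 22 for day 30 against day 7, and 0 to 2 for KO-labelled against WT-labelled on day 1. The replicate block over all 18 libraries gave 12 and 9 calls for day 7 against day 1 and 28 and 26 for day 30 against day 7 in KO-labelled and WT-labelled cortex, and 0 for every comparison by label. The block over 6 libraries gave 14 for KO-labelled day 7 against day 1. No named value reversed a call. On leaving out 1 library 212 stayed on the same side of the threshold, 37 lost their call and 3 gained one, and under the other alternatives 339 stayed, 27 lost and 1 gained. FPKM without counts limits what can be said of members near 0, and the sharing of constant exons limits single alpha and gamma members.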
